A study of Homo sapiens with 6 samples.

Results

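The genes of polyamine synthesis and breakdown were examined in HMCB, a human melanoma cell line whose labels give an NRAS genotype of Q61K. All 10 genes were chosen by name from the 26902 genes of the deposited table: ODC1, AMD1, SRM, SMS, OAZ1, OAZ2, AZIN1, SAT1, SMOX and MTAP. The choice applied no rule to their values but was made with earlier results of these data known. Cells received either siNC, a control siRNA, or an siRNA against AHCYL1, and RNA was taken 3 days later. Each group had 3 libraries, and all 6 carried the NRAS genotype and a transfection. AHCYL1, also called IRBIT, is a protein related to S-adenosylhomocysteine hydrolase that binds IP3 receptors. The study is of 1 cell line, the labels describe the siRNA only by its target, and no untransfected cells were analysed here.

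Polyamines (putrescine, spermidine and spermine) are small positively charged molecules that bind nucleic acids and are needed for cell growth. Ornithine decarboxylase makes putrescine from ornithine, and aminopropyl groups taken from decarboxylated S-adenosylmethionine turn it into spermidine and then spermine. Antizymes bind ornithine decarboxylase and send it to the proteasome, antizyme inhibitors bind the antizymes, and acetylation or oxidation turns the higher polyamines back. Each transfer of an aminopropyl group leaves methylthioadenosine, which MTAP cleaves so that methionine can be remade. Much of this control acts on translation and protein turnover, which RNA levels do not show.

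Levels are in TPM, a unit corrected for transcript length with the same sum in every library, so that genes may be compared with each other within a library. The table keeps no sequencing depth, and the depth is unknown. AHCYL1 had 150.02, 134.05 and 131.09 TPM in the siNC libraries and 13.45, 11.13 and 10.97 TPM in the siAHCYL1 libraries, 8.56% of the control mean. Of the 10 melanocytic markers examined, 8 reached 1 TPM, led by the lineage factor SOX10 at 993 to 1050 TPM, while TYR was listed at 0 in every library and MLANA stayed under 1 TPM. SOX10 and MITF did not pass the test described below, DCT fell from 10.79 to 11.95 TPM in siNC to 0.15 to 0.62 TPM in siAHCYL1, and CSPG4, PMEL, S100A1, S100B and TYRP1 rose. PMEL was near 1 TPM, at 1.53, 0.76 and 0.34 TPM in siNC and 1.94, 1.63 and 1.91 TPM in siAHCYL1. It was tested only because of the siAHCYL1 values, and it was called in 3 of the 13 other fits that tested it. S100B went from at most 11.35 to at least 26.07 TPM, and CSPG4 from at most 47.58 to at least 106.54 TPM. Of the immune markers only PTPRC reached 1 TPM, and PDGFRA, FAP, KRT5, CDH1, CD3E and VWF were listed at 0 throughout. Transcripts under 1000 bases held 27.2% to 30.6% of TPM in siNC and 24.3% to 28.3% in siAHCYL1. In both groups replicate 1 had the lowest share. Summed TPM was 4.12 to 4.97 in siNC and 8.01 to 11.8 in siAHCYL1 over the immune markers, and 15.3 to 17.9 and 26.1 to 32.4 over 6 fibroblast markers. Of the fibroblast markers LUM rose, from at most 15.43 to at least 25.47 TPM, and COL1A1 fell, from at least 1.64 to at most 0.68 TPM. COL1A1 and DCT were tested only because of their siNC values, so their lower calls rest on the group that let them be tested. COL1A1 was called in all 10 other fits that tested it, and DCT in all 11. Over 4 endothelial markers the sum was 8.81 to 11.2 in siNC and 6.26 to 7.19 in siAHCYL1, with KDR called lower. Over 6 epithelial markers it was 17.3 to 21.6 and 17.5 to 17.8, with 1 marker called in each direction. KRT18 was lower, from 17.5 ± 1.57 to 14.3 ± 0.785 TPM, and KRT8 higher, from 0.87 ± 0.584 to 2.41 ± 0.532 TPM (SD, n = 3). KRT8 was tested only because of its siAHCYL1 values. It was called in 13 of the 14 other fits that tested it, and KRT18 in 9 of 15. The part of these differences in the results that follow was not tested.

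After the AHCYL1 siRNA, 3 of the 10 genes were lower, 2 were higher and 5 did not pass the test. ODC1, SRM and OAZ2 fell, and SAT1 and AZIN1 rose. A gene was called changed at a Benjamini-Hochberg adjusted p under 0.05 in limma, a moderated linear model fitted to log2(TPM + 1) over all 13266 genes that reached 1 TPM in at least 3 libraries. In that comparison 51.6% of all genes tested were called, 30.4% higher and 21.2% lower, so that 5 of 10 is close to the share among all genes. The higher genes made up 58.9% of all calls, and 48.1% under quantile normalization. The groups did not overlap in 6 of the 10 genes, against 59.2% of all genes tested. Of the 6, SAT1, AZIN1 and OAZ1 were higher and ODC1, SRM and OAZ2 lower, and among all genes 34.7% and 24.5% were. The median log2 fold change was -0.05 over the 10 genes and 0.06 over all genes. All 10 had passed the filter on low values, and their levels spanned 7.04 TPM (SMOX) to 1813.48 TPM (ODC1). Only 2.36% of all genes had a larger absolute log2 fold change than SAT1 and 4.94% than ODC1, while at least 75.0% had a larger one than OAZ1, AMD1, SMS, SMOX or MTAP. In bulk RNA, fewer cells of a kind and less RNA per cell cannot be told apart.

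**Figure D1:**
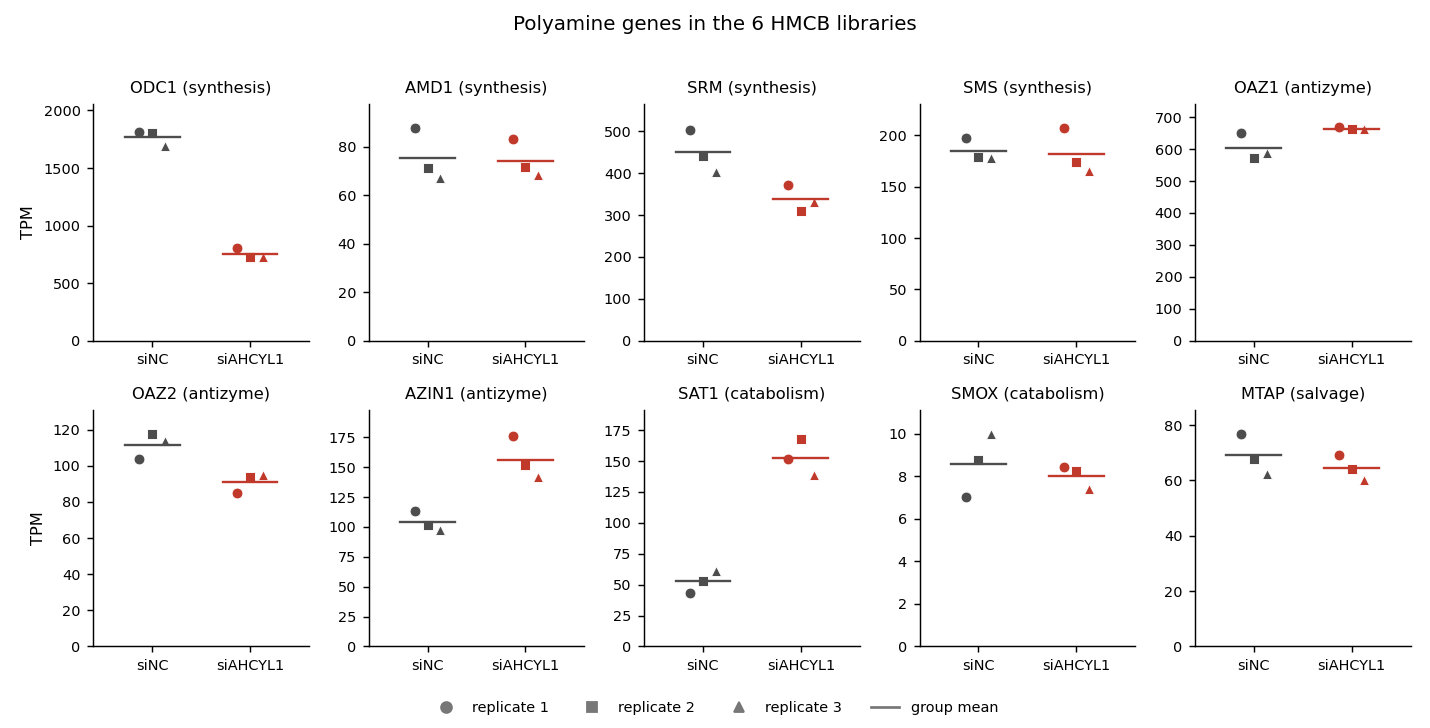
TPM of each of the 10 polyamine genes in the 3 siNC and 3 siAHCYL1 libraries, with every axis starting at 0, 1 symbol per replicate number and a line at the group mean. ODC1 dropped from 1692.43 to 1813.48 TPM to 729.41 to 807.73 TPM, SAT1 went from at most 61.16 TPM to at least 138.76 TPM, and AMD1, SMS, SMOX and MTAP overlapped between the groups.

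ODC1, the decarboxylase that commits ornithine to putrescine, was the most abundant of the 10 and fell the most. It had 1813.48, 1807.06 and 1692.43 TPM in the siNC libraries and 807.73, 730.51 and 729.41 TPM after the AHCYL1 siRNA. All siAHCYL1 libraries were below all siNC libraries, with a gap far wider than the spread inside either group. The mean dropped 2.34-fold, from 1771 ± 68.1 to 756 ± 44.9 TPM (SD, n = 3). In limma that was a log2 fold change of -1.23 with an SE of 0.063 (adjusted p = 1.11e-06), and 2.14% of all genes tested had a lower one. Among all 26902 genes ODC1 ranked between 64 and 71 by TPM in the siNC libraries and between 151 and 169 in the siAHCYL1 libraries. It fell by 1015.1 TPM, the 16th largest loss in the table. The call held in all 15 other fits.

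SRM, spermidine synthase, which adds the first aminopropyl group, was lower by a smaller step. The siNC libraries had 503.59, 441.8 and 403.06 TPM and the siAHCYL1 libraries 371.07, 310.28 and 330.46 TPM. The groups did not overlap, although the lowest control and the highest siAHCYL1 library were close. The mean fell from 449 ± 50.7 to 337 ± 31.0 TPM (SD, n = 3), or to 75.0% of the control (log2 fold change -0.41, SE 0.093, limma adjusted p = 0.00518). SRM is on chromosome 1, positions 11054584 to 11060024 of GRCh38 in GENCODE, and ODC1 on chromosome 2, positions 10439968 to 10448504, both on the minus strand.

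ODC1 and SRM are textbook targets of MYC, which binds the E-box CACGTG with its partner MAX. The RefSeq promoter table (GRCh38.p14), with 250 bases before and 50 bases after each transcript start, held windows for 8 of the 10 genes, and was searched on both strands. AZIN1 and SMOX had no entry. CACGTG occurred in windows of ODC1 and SRM and in no window of AMD1, SMS, OAZ1, OAZ2, SAT1 or MTAP, while 7.3% of all 35116 windows and 8.8% of 27305 genes carried it. Both ODC1 matches lay in the window of a second listed start, inside an intron of the GENCODE gene, the first 29 bases before that start and the second 5 bases after it. The SRM match lay 199 bases before its start, outside the gene. The stretches are shown because ODC1 and SRM are the synthesis genes that fell, each on the minus strand, 5′ to 3′, with the E-box in capitals.
ODC1 chr2:10448024-10448053: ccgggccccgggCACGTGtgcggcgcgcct
ODC1 chr2:10447990-10448019: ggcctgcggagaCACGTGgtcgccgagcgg
SRM chr1:11060200-11060229: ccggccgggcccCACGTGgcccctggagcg
Of the 1242 genes tested that carried CACGTG in a window, 25.8% fell and 28.6% rose, against 20.8% and 30.8% of 8735 genes with windows that lacked it. The patterns TGACNNNGC and TGATGNAA, with N any base, were searched in the same windows. TGACNNNGC occurred in 1 window of the 10 genes, of ODC1, and in 13.3% of all windows. TGATGNAA occurred in no window of the 10 genes and in 3.6% of all windows. A match describes these letters and not binding.

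MYC itself had 178.98, 179.00 and 179.05 TPM in siNC and 173.26, 175.11 and 177.11 TPM in siAHCYL1. The siAHCYL1 libraries were all lower but by little (log2 fold change -0.03, 95% interval -0.15 to 0.09, limma adjusted p = 0.654). It passed in 1 of 15 other fits, after removing the dependence of fold changes on transcript length and GC content (-0.15, adjusted p = 0.0207). MAX was called lower, from 15.2 ± 2.54 to 11.3 ± 1.08 TPM (-0.39, limma adjusted p = 0.0317, SD, n = 3). The MAX call was lost with no filter (adjusted p = 0.0632) and when siNC replicate 2 (0.0695), siNC replicate 3 (0.112), siAHCYL1 replicate 2 (0.11) or siAHCYL1 replicate 3 (0.0588) was left out. MYCN, a paralog of MYC, was near the filter, at 1.16, 1.85 and 1.37 TPM in siNC and 0.36, 0.73 and 0.89 TPM in siAHCYL1 (-0.57, limma adjusted p = 0.0418). MYCN passed the filter only through its siNC values, so its lower call rests on the group that let it be tested. It was tested in 10 of the 15 other fits and called in 7. Its call was lost with a pseudocount of 0.1 (adjusted p = 0.0553) and without siAHCYL1 replicate 1 (0.122) or 2 (0.075).

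The other synthesis genes did not pass. AMD1, the decarboxylase that makes the aminopropyl donor from S-adenosylmethionine, had 87.72, 71.46 and 67.29 TPM in siNC and 83.1, 71.63 and 68.27 TPM in siAHCYL1. The groups overlapped almost fully, and replicate 1 was highest in both. The log2 fold change was -0.02, with a 95% interval of -0.27 to 0.23 (limma adjusted p = 0.906). SMS, spermine synthase, had 196.85, 178.82 and 177.62 TPM in siNC and 207.18, 174.16 and 165.3 TPM in siAHCYL1, also overlapping (-0.02, interval -0.22 to 0.18, adjusted p = 0.852). The intervals leave room for changes smaller than that of SRM.

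AMD1 carried GTATGCA, a 7-mer that an earlier analysis of these same data had found most associated with lower fold changes, in the 3′ untranslated region of 4 of 4 coding transcripts searched. The site is at chr6:110893771-110893777 on the plus strand, and is shown in capitals with its surroundings because AMD1 is the one of the 10 genes that carries it in every such region searched.
AMD1 chr6:110893760-110893789: cattttgaattGTATGCAttattatatcaa
MTAP carried the 7-mer in 1 of 4 transcripts, and the other 8 genes, ODC1, SRM and OAZ2 among them, in none. Of the other pathway genes, ENOPH1, called lower, carried it in 4 of 4 transcripts searched and AZIN2, not called, in 2 of 3. Among all genes tested with such a region, 1136 carried GTATGCA and 10796 did not. Of the carriers 37.3% fell and 20.2% rose, against 20.9% and 31.3% of the others. The 7-mer was picked from these same fold changes, so these shares are no test of it. None of the 10 carried TCGGAGA, the 7-mer that the earlier analysis had linked to higher fold changes.

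Together the synthesis transcripts shrank mostly through ODC1. The summed TPM of ODC1, AMD1, SRM and SMS was 2602, 2499 and 2340 in the siNC libraries and 1469, 1287 and 1293 in the siAHCYL1 libraries. ODC1 made up 71.4% ± 1.50 of that sum in siNC and 56.1% ± 0.946 in siAHCYL1 (SD, n = 3). The ratio of ODC1 to AMD1, the decarboxylases at the head of each branch, was 20.7, 25.3 and 25.2 in siNC and 9.72, 10.2 and 10.7 in siAHCYL1. SRM to SMS went from 2.43 ± 0.148 to 1.86 ± 0.123 (SD, n = 3). None of these sums or ratios overlapped between the groups, and being combinations of chosen genes they were not tested.

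**Figure D2:**
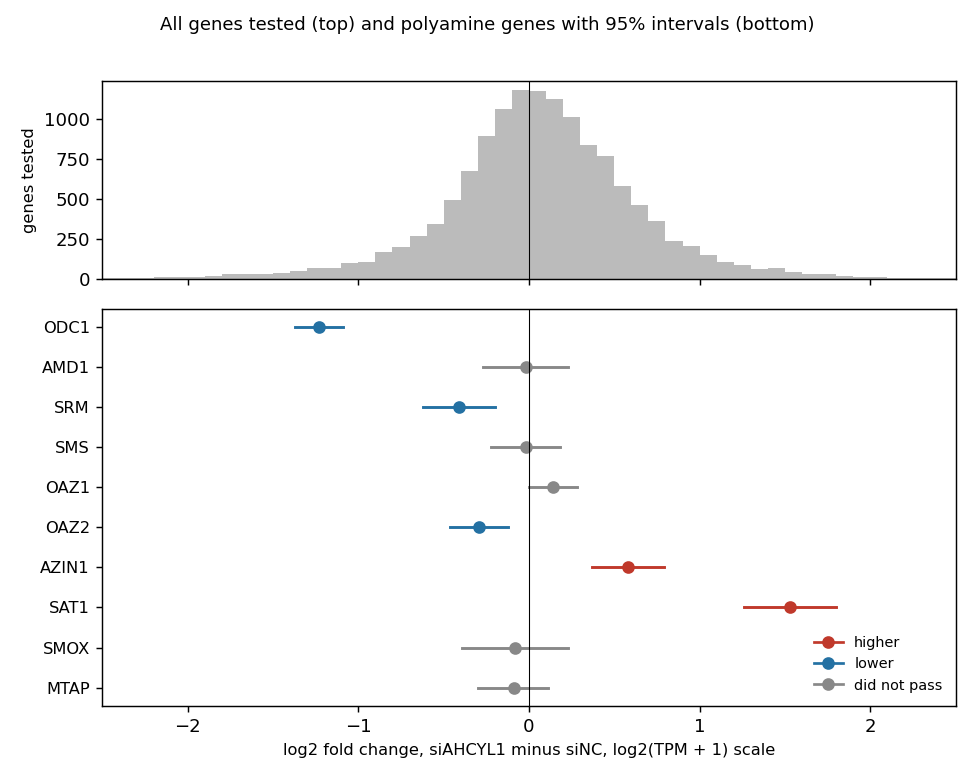
Top, number of the 13266 genes tested in each step of log2 fold change (siAHCYL1 minus siNC, on the log2(TPM + 1) scale), leaving out 42 genes beyond 2.5 in either direction. Bottom, log2 fold changes of the 10 polyamine genes with limma's 95% intervals, not adjusted for the number of genes, coloured by call, with ODC1 at -1.23 and SAT1 at 1.53 lying in the thin ends of the distribution above.

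Of the antizyme system, AZIN1 rose, OAZ2 fell and OAZ1 did not pass. AZIN1, antizyme inhibitor 1, is an inactive relative of ornithine decarboxylase that frees the enzyme from antizyme. Its levels were 113.09, 101.73 and 97.22 TPM in siNC and 176.1, 151.55 and 141.72 TPM in siAHCYL1. All siAHCYL1 libraries were higher, and the mean rose 1.50-fold from 104 ± 8.18 to 156 ± 17.7 TPM (SD, n = 3), with a log2 fold change of 0.58 (SE 0.092, limma adjusted p = 0.000698). AZIN1, on chromosome 8, shares 344 exon bases with AZIN1-AS1 on the opposite strand, and these non-directional libraries do not tell strands apart. The table lists AZIN1-AS1 at 1.25 to 3.92 TPM in siNC and 4.4 to 7.24 TPM in siAHCYL1, below AZIN1 in every library. AZIN1-AS1 was also called higher (log2 fold change 0.84, limma adjusted p = 0.0323), and in 9 of the 14 other fits that tested it. How reads from the shared bases were divided between them was not tested.

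OAZ2 had 103.97, 117.48 and 113.66 TPM in the siNC libraries and 84.85, 93.62 and 94.76 TPM in the siAHCYL1 libraries. The groups did not overlap, and replicate 1 was lowest in both. The mean fell from 112 ± 6.96 to 91.1 ± 5.42 TPM (SD, n = 3), with a log2 fold change of -0.29 (SE 0.074, limma adjusted p = 0.00914), and without siNC replicate 2 the adjusted p was 0.0478. OAZ2 lies on chromosome 15, positions 64687573 to 64703281 of GRCh38, and shares 554 exon bases with the antisense gene AC100830.3, which was not analysed here.

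OAZ1, the more abundant antizyme transcript, had 648.66, 572.69 and 587.36 TPM in siNC and 668.29, 661.35 and 662.83 TPM in siAHCYL1. The siAHCYL1 libraries lay close together and all above the controls, by a margin smaller than the spread among the controls. The log2 fold change was 0.14 (95% interval 0.003 to 0.28, limma adjusted p = 0.0816, unadjusted p = 0.0464). Leaving out siNC replicate 1 made it pass (0.20, adjusted p = 0.0197), as did leaving out both libraries numbered 1 (0.19, 0.00767), and removing the length and GC trend turned it to -0.02 (adjusted p = 0.825). OAZ1 is on chromosome 19, positions 2269509 to 2273490, and shares 236 exon bases with JSRP1 on the opposite strand, which the table lists at no more than 0.14 TPM. It also shares 220 exon bases with AC005258.1 on the same strand, which has no TPM value here.

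Both antizymes are made only when ribosomes shift frame at a stop codon, which high polyamine levels favour. The stretch with the shift site is shown because the antizyme protein depends on it as well as on the RNA levels above. It was read from GENCODE transcripts, 5′ to 3′, with the shift codon and the stop codon that follows it inside the capitals, and it was found in 7 of 11 OAZ1 and 5 of 9 OAZ2 transcripts.
OAZ1 chr19:2271429-2271458, plus strand: ctcggtggtgcTCCTGATGcccctcaccca
OAZ2 chr15:64691500-64691529, minus strand: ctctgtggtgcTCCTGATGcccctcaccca
The stretches were identical at 29 of 30 bases, differing by G4T, counted from 1 at the 5′ end of the stretch with the OAZ1 base first.

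OAZ1 and OAZ2 together held 753, 690 and 701 TPM in siNC and 753, 755 and 758 TPM in siAHCYL1. ODC1 transcripts per antizyme transcript were therefore 2.41, 2.62 and 2.41 in siNC and 1.07, 0.968 and 0.963 in siAHCYL1. AZIN1 per antizyme transcript was 0.15, 0.147 and 0.139 in siNC and 0.234, 0.201 and 0.187 in siAHCYL1. Relative to the antizymes, the transcript of their target was lower and that of their inhibitor higher in every siAHCYL1 library. OAZ1 per OAZ2 went from 5.43 ± 0.718 to 7.31 ± 0.490 (SD, n = 3). OAZ3, the antizyme known from testis, was at 1.16, 0 and 0.19 TPM in siNC and 4.04, 0.24 and 2.07 TPM in siAHCYL1 and did not pass (limma adjusted p = 0.118). For AZIN2, the other antizyme inhibitor, the means were 3.64 ± 0.707 and 2.49 ± 0.716 TPM (SD, n = 3), which was not called by limma (adjusted p = 0.0906). OAZ3 passed without siAHCYL1 replicate 2 (adjusted p = 0.00773), as did AZIN2 (0.036), which passed also with the length and GC trend removed (0.0258).

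**Figure D3:**
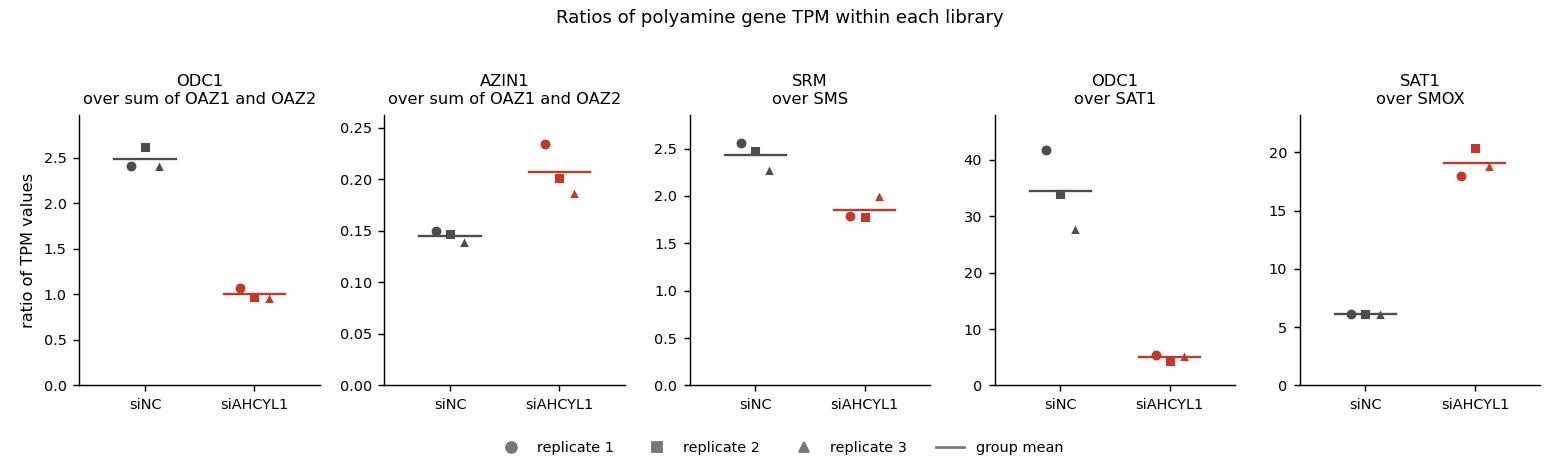
Ratios of TPM values within each library for 5 pairs of polyamine genes or sums, with every axis starting at 0, 1 symbol per replicate number and a line at the group mean. ODC1 over the antizymes went from 2.41 to 2.62 in siNC to 0.963 to 1.07 in siAHCYL1, and ODC1 over SAT1 from 27.7 to 41.8 to 4.35 to 5.32.

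On the breakdown side, SAT1 rose and SMOX did not pass. SAT1 acetylates spermidine and spermine, which marks them for export or oxidation, and its gene is known to be induced by polyamines and by many stresses. It had 43.36, 53.36 and 61.16 TPM in the siNC libraries and 151.77, 167.84 and 138.76 TPM in the siAHCYL1 libraries. The lowest siAHCYL1 library was above all controls by more than the spread inside either group. The mean rose 2.90-fold, from 52.6 ± 8.92 to 153 ± 14.6 TPM (SD, n = 3), with a log2 fold change of 1.53 (SE 0.12, limma adjusted p = 1.2e-05). Only 1.28% of all genes tested had a higher fold change, and the call held in all 15 other fits (1.40 to 1.64). SAT1, on chromosome X at positions 23783173 to 23786226, is the shortest of the 10, with a GENCODE transcript length of 909 bases, and its log2 fold change was 1.44 once the length and GC trend was taken out. SAT1 is also known to be spliced into a form that is degraded, and gene-level TPM does not separate the forms.

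SMOX, the oxidase that turns spermine straight into spermidine, was the lowest of the 10, at 7.04, 8.76 and 9.96 TPM in siNC and 8.41, 8.22 and 7.39 TPM in siAHCYL1. The groups overlapped (log2 fold change -0.08, 95% interval -0.39 to 0.23, limma adjusted p = 0.651). SAT1 over SMOX was 6.16, 6.09 and 6.14 in siNC and 18.0, 20.4 and 18.8 in siAHCYL1. PAOX, which oxidises the acetylated products of SAT1, had 2.19, 5.23 and 3.83 TPM in siNC and 4.67, 5.54 and 5.44 TPM in siAHCYL1 and did not pass (0.44, adjusted p = 0.131). Its log2 fold change was 0.66 without siNC replicate 2 (adjusted p = 0.0319), 0.18 without siNC replicate 1 (0.417) and 0.24 without replicate 1 of either group (0.265). SAT2, the paralog of SAT1, was at 41.8 ± 3.98 and 42.4 ± 2.69 TPM (SD, n = 3) and did not pass (0.02, interval -0.18 to 0.23, limma adjusted p = 0.853). SAT1 and SAT2 had like levels in siNC, with a ratio of 1.25 ± 0.101, and SAT1 was 3.62 ± 0.395 times SAT2 in siAHCYL1 (SD, n = 3). ODC1 over SAT1, the first step of synthesis against the first of breakdown, fell from 34.5 ± 7.09 to 4.98 ± 0.542 (SD, n = 3) without a test.

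MTAP, the salvage phosphorylase, is often lost in melanoma with the neighbouring tumour suppressor CDKN2A. It was present in every library, at 76.9, 67.83 and 62.31 TPM in siNC and 69.05, 64.08 and 60.13 TPM in siAHCYL1. The groups overlapped and the difference did not pass (log2 fold change -0.09, 95% interval -0.30 to 0.11, limma adjusted p = 0.412). MTAP spans positions 21802543 to 21937651 of chromosome 9. It shares 460 exon bases with AL359922.1 and 684 with ERVFRD-3 on the same strand, and 257 with AL359922.2 on the opposite strand. None of these has a TPM value here.

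Replicate 1 stood at the same end of both groups for most of these genes. In ODC1, AMD1, SRM, SMS, OAZ1, AZIN1 and MTAP, 7 of 10, replicate 1 was the highest library of siNC and of siAHCYL1, against 33.5% of all genes tested. OAZ2 was lowest in replicate 1 of both groups, as were 13.0% of all genes. Without replicate 1 of both groups, ODC1 (-1.26), SRM (-0.40), OAZ2 (-0.29), AZIN1 (0.55) and SAT1 (1.40) were still called, and OAZ1 joined them. What set replicate 1 apart was not tested.

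The rest of the pathway was read from a list of 33 other genes, of which 28 were tested. Of these 5 were higher, 10 lower and 13 did not pass, 53.6% called against 51.6% of all genes, with a median log2 fold change of -0.05. The 10 lower genes include MYCN, which was tested only through its siNC values. SATL1, AOC1 and TAT were listed at 0 in every library, ARG1 reached 0.12 TPM in 1 library, and AGMAT stayed at or under 1.2 TPM.

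Of the 4 tested genes that supply ornithine and arginine, 2 rose and 2 fell, where 51.6% of all genes were called. ARG2, the mitochondrial arginase that makes ornithine, had 20.73, 20.49 and 19.92 TPM in siNC and 11.3, 9.45 and 8.57 TPM in siAHCYL1. That is 48.0% of the control, with no overlap (log2 fold change -1.0, SE 0.11, limma adjusted p = 9.04e-05). OAT, ornithine aminotransferase, which links ornithine to glutamate and proline, fell from 175 ± 7.41 to 139 ± 6.39 TPM (-0.33, adjusted p = 0.0021, SD, n = 3). The transporters of arginine, ornithine and lysine went the other way. SLC7A1 had 58.02, 50.05 and 49.53 TPM in siNC and 108.89, 93.41 and 93.06 TPM in siAHCYL1 (0.89, limma adjusted p = 5.04e-05), and SLC7A2 had 77.79, 72.26 and 71.75 against 157.19, 136.35 and 133.83 TPM (0.93, 1.64e-05).

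Hypusination transfers part of spermidine to the translation factor eIF5A. Of its 4 genes 3 fell, where 21.2% of all genes did, and a list this short was not tested as a group. DHPS, deoxyhypusine synthase, had 144.01, 146.42 and 150.41 TPM in siNC and 103.36, 108.72 and 111.51 TPM in siAHCYL1 (log2 fold change -0.44, limma adjusted p = 0.000286). EIF5A, the substrate, fell from 749 ± 15.2 to 540 ± 3.94 TPM (-0.47, limma adjusted p = 7.5e-05, SD, n = 3), and its paralog EIF5A2 from 27.7 ± 2.28 to 17.9 ± 2.02 TPM (-0.61, 0.00117). EIF5A has near-identical copies in the genome, and its value is uncertain to that extent. DOHH, the hydroxylase of the last step, was at 37.9 ± 6.07 and 36.3 ± 5.59 TPM, and its difference did not pass (-0.06, limma adjusted p = 0.752, SD, n = 3).

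Of 5 transport genes, 2 fell, none rose and 3 did not pass, where 21.2% of all genes fell and 30.4% rose. ATP13A3, a membrane pump of polyamine uptake, fell from 239 ± 19.8 to 168 ± 24.5 TPM (-0.51, limma adjusted p = 0.00279, SD, n = 3). SLC3A2, the heavy chain shared by several amino acid exchangers and linked to polyamine export, fell from 521 ± 41.8 to 422 ± 9.63 TPM (-0.30, adjusted p = 0.0049, SD, n = 3). ATP13A2, the lysosomal polyamine exporter, had 65.38, 69.89 and 65.23 TPM in siNC and 60.65, 60.32 and 61.14 TPM in siAHCYL1. It did not pass (-0.14, limma adjusted p = 0.108) but did under median-of-ratios scaling (-0.20, 0.0255), quantile normalization (-0.24, 0.0115) and removal of the length and GC trend (-0.23, 0.00546).

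Around S-adenosylmethionine and methylthioadenosine the changes went in both directions, with log2 fold changes from -0.29 (ENOPH1) to 0.54 (GOT1). MAT2A, which makes S-adenosylmethionine, was called higher, from 202 ± 12.5 to 237 ± 11.6 TPM (0.23, limma adjusted p = 0.0172, SD, n = 3). That call was lost with no trend and robust moderation (adjusted p = 0.051) and without siNC replicate 2 (0.0696), siNC replicate 3 (0.0606) or siAHCYL1 replicate 2 (0.0599). Of the 2 S-adenosylmethionine synthesis genes tested, MAT2A was the 1 called, where 51.6% of all genes were. Of 5 salvage genes tested downstream of MTAP, 2 rose, 1 fell and 2 did not pass, set against the same share. ADI1, the acireductone dioxygenase, rose from 102 ± 10 to 136 ± 11.7 TPM (0.41, limma adjusted p = 0.0047, SD, n = 3). GOT1, a transaminase that can complete the cycle, rose from 39.6 ± 2.87 to 58.1 ± 1.17 TPM (0.54, limma adjusted p = 0.000347, SD, n = 3). ENOPH1, the enzyme before ADI1, fell from 77.0 ± 7.16 to 62.6 ± 2.84 TPM (-0.29, limma adjusted p = 0.0152, SD, n = 3), a call lost without siAHCYL1 replicate 2 (adjusted p = 0.0594). MRI1 and APIP, the first enzymes after MTAP, did not pass (adjusted p = 0.727 and 0.708).

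**Figure D4:**
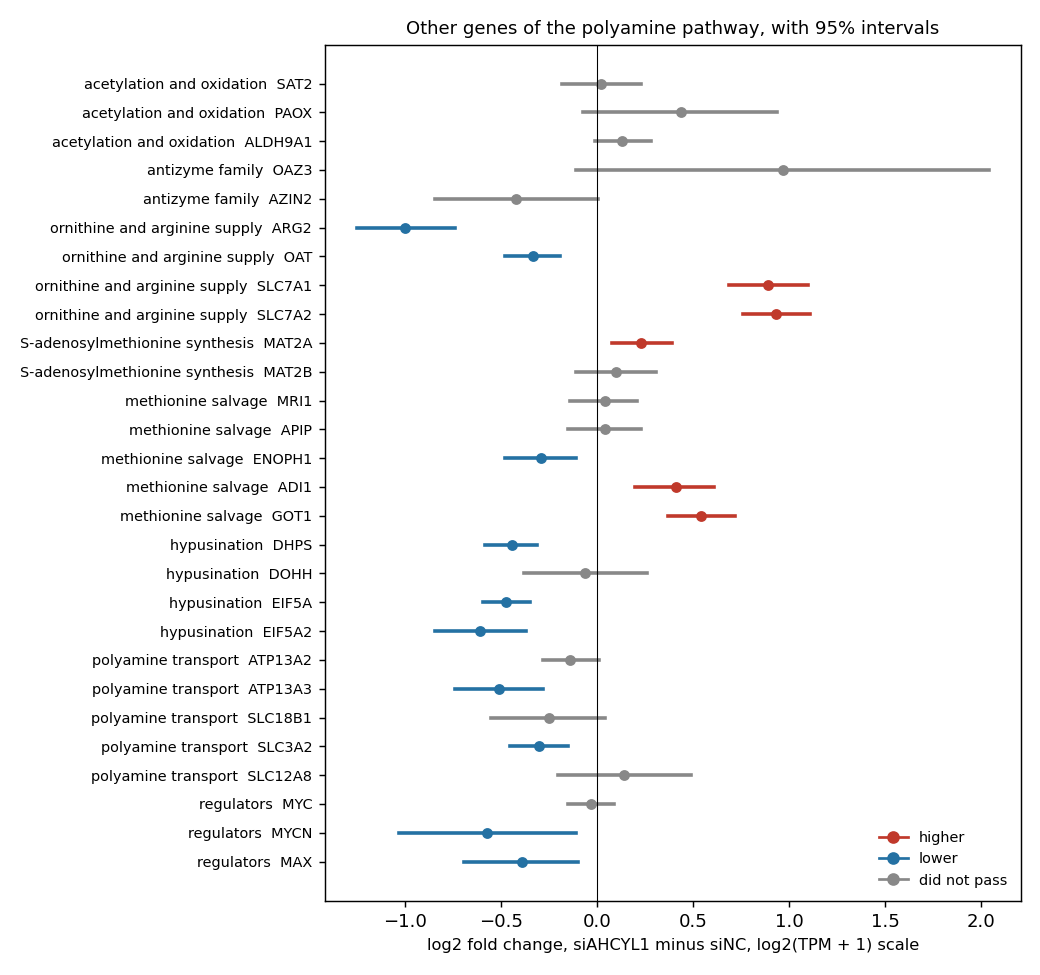
Log2 fold changes (siAHCYL1 minus siNC, log2(TPM + 1) scale) of the 28 other pathway genes tested, with limma's 95% intervals, not adjusted for the number of genes, grouped by step and coloured by call. SLC7A1 (0.89) and SLC7A2 (0.93) lie on the higher side, ARG2 (-1.0) on the lower, and the interval of OAZ3 is the widest shown.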

How the data were processed

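RNA-seq was analysed from 6 HMCB libraries, 3 siNC and 3 siAHCYL1, non-directional per the labels' protocols. The authors deposited TPM per gene and library, made with STAR, RSEM and GRCh38 per the submitters' processing notes, with versions and annotation not given in the sources used here. Each library summed to 1000000 within rounding. Column prefixes nc and si were read as siNC and siAHCYL1, the latter because 1 other group exists. The titles call the libraries biological replicates and do not say whether they came from separate cultures, so p-values reflect only how these libraries vary, part of which may be technical.

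From these values log2(TPM + 1) was fitted with limma 3.58.1 in R 4.3.3 (intensity trend, group as the only term, two-sided, Benjamini-Hochberg over 13266 genes with at least 1 TPM in 3 libraries), tested on simulated data. Fold changes are on that scale, which understates low genes. Intervals are limma's 95% intervals.

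The 10 genes, the 33 pathway genes and the 7-mers were chosen with earlier results of these data known. All 10 were named, with every pathway gene that passed, MYC and the paralogs. ATP13A2, DOHH, MRI1, APIP, MAT2B and the genes under the filter fall outside that rule and were chosen after their values were seen. Alternatives were a pseudocount of 0.1, no filter, 5 TPM, median-of-ratios, quantile normalization, a replicate block, no trend with robust moderation, each library or replicate 1 of both groups left out, and, chosen after seeing the data, the length and GC trend removed (splines with 5 degrees of freedom). Gene models and untranslated regions came from GENCODE 29. It lists pseudogenes named after ODC1 (1), AMD1 (4), SRM (2) and MTAP (2), none with a TPM value of its own. Their part in the values of those genes was not tested.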

Additional observations from a re-analysis of the deposited data

How the results depend on the processing

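Of all genes tested 6844 were called, 6055 to 7919 in 9 alternatives and 5566 to 6725 when 1 library was left out. Of the 10 polyamine genes 5 were called, and 5 or 6 in every alternative, the sixth being OAZ1. Of the 28 other pathway genes 15 were called, 14 to 18 over the alternatives and 12 to 14 with 1 library left out. ODC1, SRM, OAZ2, AZIN1 and SAT1 kept direction and call in all 15 alternatives.

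Fold changes that turned sign belonged to genes called in neither fit. Under median-of-ratios scaling these were SAT2 (-0.04), MRI1 (-0.03) and APIP (-0.02). Under quantile normalization they were SAT2 (-0.08), MAT2B (-0.02), MRI1 (-0.06) and APIP (-0.06). With the length and GC trend removed they were OAZ1 (-0.02), SAT2 (-0.15), MRI1 (-0.04) and APIP (-0.02), and without replicate 1 of both groups AMD1 (0.01) and SAT2 (-0.002). With 1 library left out, the log2 fold change ranged from -0.10 to 0.09 for AMD1, -0.12 to 0.04 for SMS, -0.20 to 0.02 for SMOX, -0.05 to 0.08 for SAT2, -0.002 to 0.09 for MRI1, -0.04 to 0.09 for APIP and -0.20 to 0.07 for DOHH. For these and the changes of call, the cause was not tested.

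The replicate numbers were not taken as pairing. The deviations of same-numbered libraries correlated at 0.233, 0.001 and 0.154, and 4 of 6 libraries correlated best with their own number. With the replicate block 7919 genes were called, 6 of the 10 polyamine genes (OAZ1 at adjusted p = 0.0265) and 16 of the other pathway genes. OAZ3 passed as well (adjusted p = 0.0144). TPM keeps no read numbers, and limits set by depth could not be computed.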
